A study of Mus musculus with 8 samples.

Results

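The genes described here encode the enzymes that cut the extracellular matrix of the heart and the inhibitors that hold them in check. They are the matrix metalloproteinases (MMPs), the tissue inhibitors of metalloproteinases (TIMPs), the ADAMTS proteases and the ADAMTS-like (ADAMTSL) proteins. Every gene of the deposited expression table whose symbol is Mmp, Adamts or Adamtsl with a number, or Timp1 to Timp4, was taken. This gave 51 of the 24341 genes in the table, made up of 23 MMP, 4 TIMP, 19 ADAMTS and 5 ADAMTSL genes.

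RNA was sequenced from ventricular lysate of male mice, in 4 libraries labelled Neg Cre (called cre_negative here) and 4 labelled Pos Cre (cre_positive). All 8 carry the strain label Med13/13L fl/fl, an age of 12 weeks and tamoxifen chow, with 4 weeks between tamoxifen and RNA, so the controls share the floxed alleles and the drug and lack the Cre. The series title places the deletion of Med13 and Med13l in cardiomyocytes, and the labels do not name the line of Cre mice. The comparison asks how the ventricle changes when cardiomyocytes lose these 2 subunits of the kinase module of Mediator, a loss that the title links to heart failure. The labels number the libraries within each group and do not say whether each is 1 animal, so p-values measure the spread between these libraries only.

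MMPs and ADAMTS enzymes are zinc proteases that are made as inactive precursors and act outside the cell or at its surface. MMPs cut collagens, gelatin and many other proteins, whereas ADAMTS enzymes process procollagen and cut proteoglycans such as versican and aggrecan. TIMPs bind the active site of these enzymes, and ADAMTSL proteins resemble ADAMTS enzymes but lack the catalytic domain and bind to microfibrils of the matrix. In the heart many of these proteins are made by fibroblasts, vascular cells and infiltrating immune cells, and the family is known for its part in scar formation and in remodelling of the ventricle.

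The sequences around the starts of 4 genes are shown. Adamtsl2 had the largest rise, and Timp1 had the largest rise among the inhibitors. Mmp3 and Mmp13 belong to an MMP cluster in which several windows, but not all, share a motif. Each is a RefSeq window of 300 bases on GRCm38.p6, from 250 bases before to 50 after the annotated start, on the plus strand, 5′ to 3′. Capitals mark the letters TGAGTCA or TGAGTAA (the type bound by AP-1 factors) and AGGAAG (the type bound by ETS factors), searched on both strands.
Timp1, chrX:20869916-20870215: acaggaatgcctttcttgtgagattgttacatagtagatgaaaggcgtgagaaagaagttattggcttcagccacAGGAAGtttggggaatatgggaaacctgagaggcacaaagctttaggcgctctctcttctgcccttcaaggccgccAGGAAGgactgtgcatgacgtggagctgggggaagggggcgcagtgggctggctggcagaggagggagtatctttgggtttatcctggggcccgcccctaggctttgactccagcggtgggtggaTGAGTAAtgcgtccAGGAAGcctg
Adamtsl2, chr2:27079129-27079428: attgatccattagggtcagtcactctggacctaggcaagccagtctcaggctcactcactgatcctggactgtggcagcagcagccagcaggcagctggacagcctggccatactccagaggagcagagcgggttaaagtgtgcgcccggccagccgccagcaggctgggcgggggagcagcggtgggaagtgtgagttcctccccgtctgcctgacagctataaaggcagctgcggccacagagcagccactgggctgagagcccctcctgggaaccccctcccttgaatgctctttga
Mmp3, chr9:7445572-7445871: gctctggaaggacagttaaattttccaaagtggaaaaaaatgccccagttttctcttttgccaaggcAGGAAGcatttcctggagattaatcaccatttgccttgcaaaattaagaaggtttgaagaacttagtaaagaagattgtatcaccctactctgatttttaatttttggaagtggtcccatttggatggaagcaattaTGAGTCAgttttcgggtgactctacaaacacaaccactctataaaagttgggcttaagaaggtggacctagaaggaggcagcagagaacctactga
Mmp13, chr9:7272264-7272563: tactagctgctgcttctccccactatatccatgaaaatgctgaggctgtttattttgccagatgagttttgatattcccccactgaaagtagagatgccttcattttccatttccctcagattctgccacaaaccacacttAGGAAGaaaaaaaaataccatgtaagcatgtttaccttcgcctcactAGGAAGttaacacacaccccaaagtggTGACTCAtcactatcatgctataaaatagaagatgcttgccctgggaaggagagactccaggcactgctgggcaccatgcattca

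Windows were found for 36 of the 51 genes. TGAGTCA stood in 5.20% of all 32851 windows of the RefSeq table and in those of 7 of the 36 genes, namely Mmp1a, Mmp1b, Mmp3, Mmp7, Mmp10, Mmp12 and Mmp13. All 7 lie in the MMP cluster on chromosome 9. Of the 7, only Mmp3 reached the level needed for the main test described below, and it was not called. Mmp13 was called lower only in a fit without that limit. In Mmp3 the letters began 46 bases before the start and in Mmp13, on the other strand, 35 bases before it. TGAGTAA stood in 2.68% of all windows and, in the family, in that of Timp1 only, 26 bases after the start; this variant was added to the search after the Timp1 window had been seen. AGGAAG was common, in 35.4% of all windows and in those of 15 of the 36 genes, and occurs 3 times in the Timp1 window. The Adamtsl2 window held none of the 3. A match describes these letters in these windows and nothing about a factor bound there.

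Levels are given as the authors deposited them, in FPKM (fragments divided by the kilobases of the transcript and by the 1e+06 fragments mapped). The table gives no depth, which was estimated at 4.48 to 23.3 times 1e+06 fragments a library, so that 1 FPKM of a transcript of 2 kb rests on 8.97 to 46.7 fragments. A count of 0 allows up to 3 fragments, or 0.0643 to 0.335 FPKM, and this limit covers counting error only. By its level of Rn45s, the precursor of ribosomal RNA, a library belonged to 1 of 2 sets: cre_negative 1, 3 and 4 with cre_positive 1 and 2 (396 to 1053 FPKM) and cre_negative 2 with cre_positive 3 and 4 (10.3 to 16.0 FPKM). The second set was also deeper, and the 2 sets served as batches. Med13 measured 10.3 to 15.3 FPKM in cre_negative and 7.39 to 8.73 in cre_positive libraries, and Med13l 4.38 to 6.13 and 2.35 to 2.59.

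Of the 51 genes, 25 averaged 1 FPKM or more across all 8 libraries and were tested, namely 7 of 23 MMP, all 4 TIMP, 10 of 19 ADAMTS and 4 of 5 ADAMTSL genes. With limma on log2(FPKM + 1), adjusted by the Benjamini-Hochberg method over 11688 genes, 9 of the 25 rose in cre_positive libraries (36%), against 19.7% of all genes tested, and 5 fell (20%), against 19.4% of all. The share that fell was thus at the background. The values of the groups did not overlap for 16 of the 25 (64%), against 38.0% of all genes. The median difference was 0.15 on the log2 scale, against -0.01 for all genes. A difference of at least 1 on this scale was seen in 4 of the genes that rose (Adamtsl2, Timp1, Mmp23 and Adamts2) and in 2 that fell (Mmp15 and Adamts7), where 3.10% and 2.84% of all genes did so. When library sums were equalised, 8 genes of the family reached that size upward and 1, Mmp15, downward. The 3.10% and 2.84% do not apply to that scaling, which moved the median of all genes up to 0.26. The share of all genes that reached this size was not counted there.

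**Figure D1:**
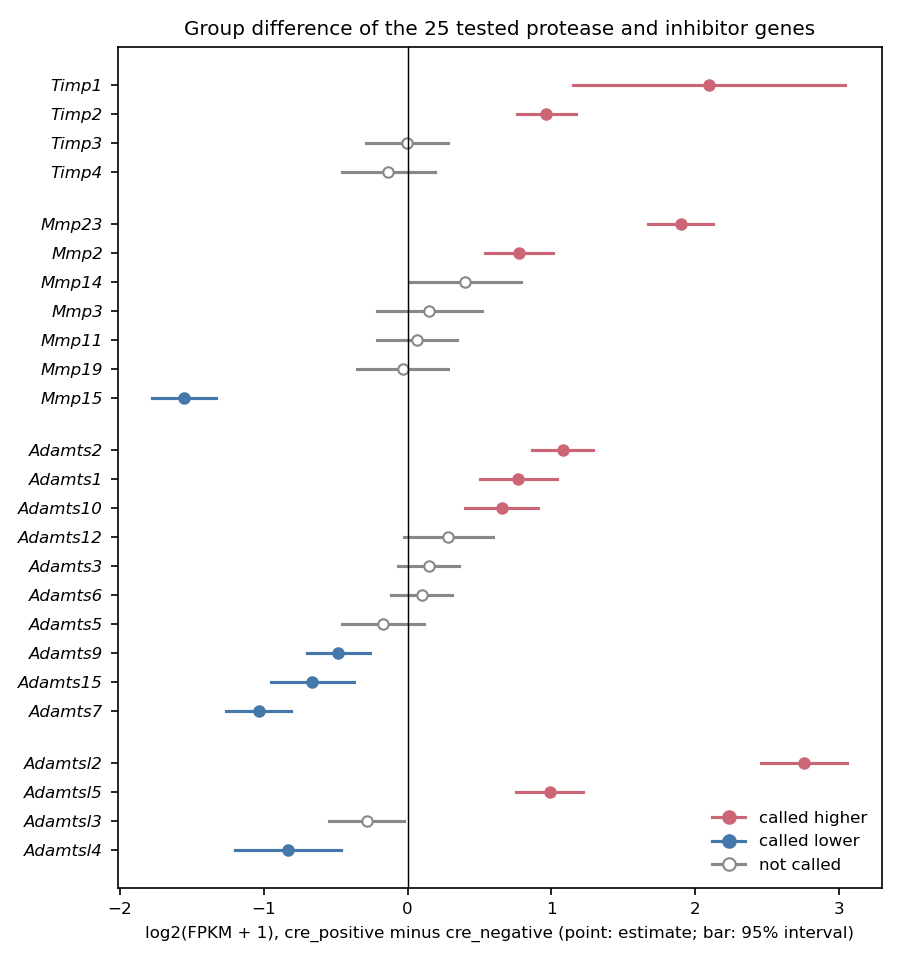
Difference in log2(FPKM + 1) between cre_positive and cre_negative libraries (x axis) for the 25 tested genes (y axis), ordered within TIMP, MMP, ADAMTS and ADAMTSL genes; points are limma estimates, bars are 95% intervals, and filled points passed the test. Adamtsl2 lies farthest to the right at 2.76 and Mmp15 farthest to the left at -1.55.

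The TIMPs fell into a pair that rose and a pair that was not called. Timp1, the inducible inhibitor, measured 3.37, 6.63, 1.53 and 3.77 FPKM in cre_negative libraries 1 to 4 and 16.1, 10.2, 14.1 and 45.2 in cre_positive libraries 1 to 4. All 4 cre_positive libraries lay above all 4 controls, and cre_positive 4 stood far above its own group. The means were 3.82 ± 2.11 and 21.4 ± 16.1 FPKM (SD, n = 4 each), or 13.5 ± 3.02 in cre_positive without library 4, and the log2 difference was 2.09 (SE 0.43, limma adjusted p = 0.00307), or 1.67 without that library (adjusted p = 0.00368). Within the batches the order was the same: 1.53 to 3.77 against 10.2 and 16.1 FPKM in the batch of 5, and 6.63 against 14.1 and 45.2 in the batch of 3. The gene lies on chrX:20870166-20874737 (mm10) inside Syn1 on the opposite strand, with no shared exonic base, and Syn1 did not exceed 0.218 FPKM in any library.

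Timp2, which both inhibits MMP2 and, together with MMP14, helps to activate its precursor, measured 21.9, 21.4, 25.3 and 25.2 FPKM in cre_negative and 51.4, 44.2, 49.5 and 41.8 in cre_positive libraries. The groups were far apart and each was tight. The mean rose from 23.5 ± 2.07 to 46.7 ± 4.48 FPKM (SD, n = 4 each), a log2 difference of 0.96 (SE 0.09, limma adjusted p = 2.36e-05). Its locus is chr11:118301061-118355411.

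Timp3, which sits in the matrix and is the main inhibitor of ADAMTS enzymes, was the most abundant gene of the whole family. It measured 73.7, 52.5, 64.9 and 61.6 FPKM in cre_negative and 77.5, 53.7, 57.9 and 63.5 in cre_positive libraries. The groups overlapped over nearly their whole range, with means of 63.2 ± 8.78 and 63.1 ± 10.4 FPKM (SD, n = 4 each). The 95% interval of the log2 difference ran from -0.29 to 0.28 (limma adjusted p = 0.984). Timp4, the inhibitor most restricted to heart and vessels, measured 15.6, 17.9, 18.4 and 20.7 FPKM against 19.1, 12.8, 20.4 and 14.3, again overlapping. Its means were 18.1 ± 2.10 and 16.6 ± 3.66 FPKM (SD, n = 4 each), with an interval of -0.46 to 0.19 (limma adjusted p = 0.505). In exact two-sided permutation tests p was 0.0286 for Timp1 and for Timp2, the smallest that 4 against 4 libraries allow, 1 for Timp3 and 0.457 for Timp4. Timp3 lies within Syn3 and Timp4 within Syn2. Syn3 stayed at 0.171 to 0.518 FPKM and Syn2, which shares 90 exonic bases with Timp4, at 0.470 to 1.13 FPKM, and no source used here says whether counting kept the strands apart.

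**Figure D2:**
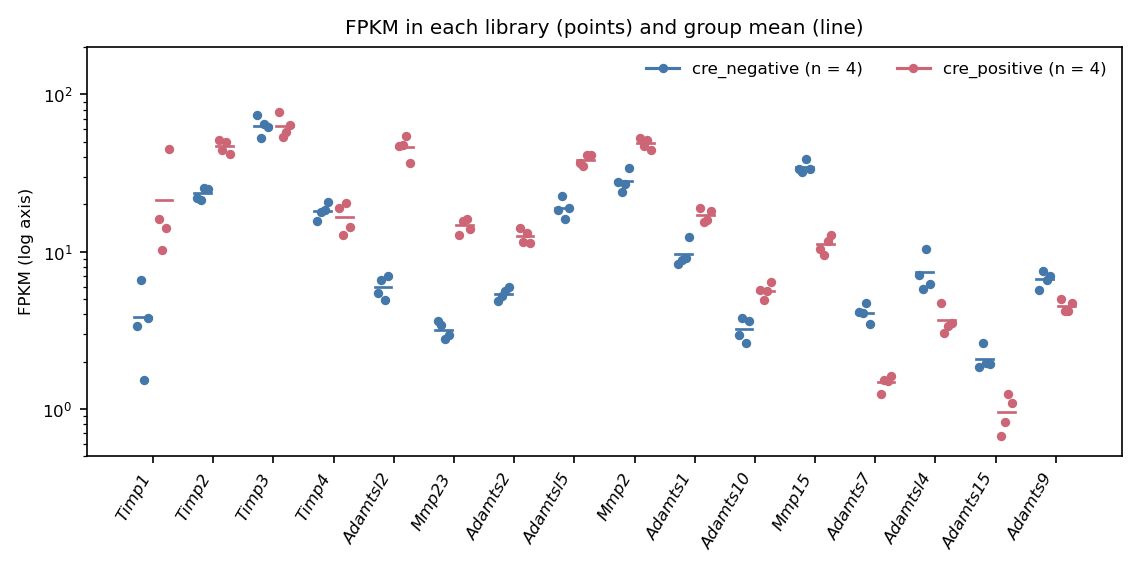
FPKM on a log axis (y) in each cre_negative (blue) and cre_positive (red) library for the 4 TIMP genes and the 12 called genes of the other subfamilies (x); points are libraries and lines are group means. Timp3 and Timp4 overlap between groups, while the 14 called genes do not, and 1 Timp1 point reaches 45.2 FPKM.

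The 2 most abundant MMPs of the controls moved in opposite directions. Mmp15, which encodes a membrane-bound protease (MT2-MMP) and was the most abundant MMP of the controls, measured 33.4, 32.3, 38.8 and 33.3 FPKM in cre_negative and 10.4, 9.52, 11.7 and 12.7 in cre_positive libraries. Every cre_positive library was below every control. The mean fell from 34.5 ± 2.91 to 11.1 ± 1.41 FPKM (SD, n = 4 each), 3.10-fold lower, with a log2 difference of -1.55 (SE 0.10, limma adjusted p = 2.37e-06). Mmp2, the gelatinase that degrades denatured collagen and basement membrane, measured 27.8, 24.1, 27.0 and 34.0 FPKM against 52.7, 46.8, 51.4 and 44.2. These groups did not overlap either. The mean of Mmp2 rose from 28.2 ± 4.16 to 48.8 ± 3.94 FPKM (SD, n = 4 each), a log2 difference of 0.78 (SE 0.11, limma adjusted p = 2.57e-04). Mmp15 lies on chr8:95352296-95374293 and Mmp2 on the same chromosome at chr8:92827290-92853421.

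Mmp23, a membrane-anchored MMP of unusual domain structure, showed the largest rise among the MMPs. It measured 3.60, 3.44, 2.79 and 2.97 FPKM in cre_negative and 12.8, 15.7, 16.2 and 13.9 in cre_positive libraries. The lowest cre_positive library was well above the highest control. The mean was 4.58-fold higher (3.20 ± 0.382 against 14.7 ± 1.57 FPKM, SD, n = 4 each), with a log2 difference of 1.90 (SE 0.10, limma adjusted p = 9.02e-07). Its locus is chr4:155650655-155654539.

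The other 4 tested MMPs were not called. Mmp14 (MT1-MMP, the activator of pro-MMP2) measured 6.28 ± 1.64 FPKM in cre_negative and 8.49 ± 1.64 in cre_positive libraries (limma adjusted p = 0.0988), and it was called higher when library sums were equalised (log2 difference 0.67, adjusted p = 0.00884). Mmp3 (stromelysin-1) measured 1.87 ± 0.437 and 2.21 ± 0.735 FPKM (limma adjusted p = 0.510). Mmp11 (stromelysin-3) measured 3.02 ± 0.233 and 3.24 ± 0.708 FPKM (limma adjusted p = 0.724). Mmp19 measured 1.27 ± 0.352 and 1.21 ± 0.247 FPKM (limma adjusted p = 0.872). Of the exonic bases of Mmp19, 789 overlap the antisense gene Tmem198b, which was at 2.80 to 3.61 FPKM, so the level of Mmp19 may include its reads. All of these means are over n = 4 libraries with SD, and the groups of all 4 genes overlapped.

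The summed level of the 23 MMPs was 81.6 ± 4.60 FPKM in the controls and 92.6 ± 4.85 with Cre (SD, n = 4 each), and its make-up differed. Mmp15 made up 42.3% ± 3.41 of the sum in the controls and 12.0% ± 1.74 in cre_positive libraries. Mmp2 went from 34.5% ± 3.75 to 52.7% ± 1.78, and Mmp23 from 3.95% ± 0.675 to 15.9% ± 1.93. None of these 3 shares overlapped between groups. Among the TIMPs the share of Timp3 went from 58.0% ± 4.83 to 42.7% ± 3.86, that of Timp2 from 21.6% ± 1.75 to 32.0% ± 4.93 and that of Timp1 from 3.61% ± 2.25 to 13.9% ± 9.04. The share of Timp1 was 27.4% in cre_positive 4 and 8.43% to 9.93% in the other 3 libraries of that group.

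**Figure D3:**
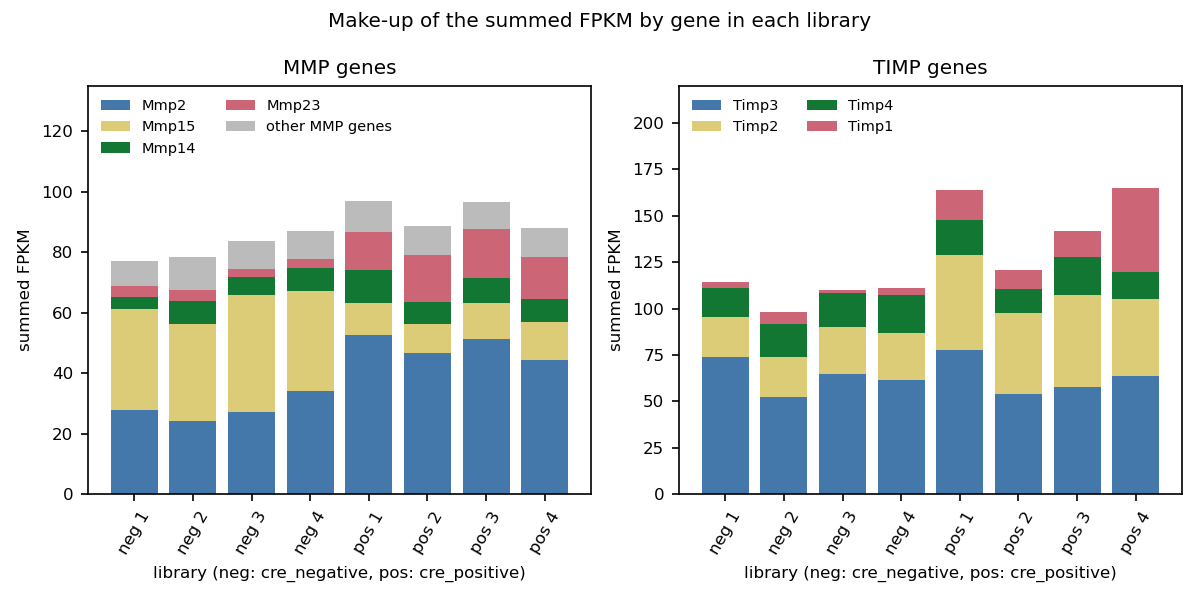
Summed FPKM (y axis) of the 23 MMP genes (left) and the 4 TIMP genes (right) in each library (x axis), with the height of each colour the FPKM of 1 gene. The Mmp15 layer shrinks from 32.3 to 38.8 FPKM in cre_negative to 9.52 to 12.7 in cre_positive libraries, and the Timp1 layer is tallest in cre_positive 4.

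Proteases were then set against inhibitors within each library, as ratios of FPKM that describe transcript levels and not enzyme activity. The MMP sum divided by the TIMP sum was 0.674, 0.797, 0.759 and 0.783 in cre_negative and 0.590, 0.733, 0.681 and 0.535 in cre_positive libraries. The groups overlapped, since cre_negative 1 lay below cre_positive 2 and 3. The means were 0.753 ± 0.0552 and 0.635 ± 0.0890 (SD, n = 4 each). Without Mmp15 in the sum the ratio went the other way, from 0.435 ± 0.0485 to 0.559 ± 0.0855, also with overlap. The ADAMTS sum divided by the TIMP sum was 0.425 ± 0.0506 and 0.398 ± 0.0390, overlapping as well.

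Some ratios of known partners separated the groups and others did not. Mmp2 divided by Timp2 was 1.27, 1.12, 1.07 and 1.35 in cre_negative and 1.02, 1.06, 1.04 and 1.06 in cre_positive libraries, without overlap but with a narrow gap between 1.06 and 1.07. The ratio of Adamts1 to Timp3 was higher in every cre_positive library (0.246 to 0.285) than in any control (0.114 to 0.201). Of this pair Adamts1 alone differed without overlap, and Timp3 overlapped. Mmp9 divided by Timp1 was lower in cre_positive libraries, at 0.00416 to 0.0171 against 0.0294 to 0.321, and here Mmp9 was below 1 FPKM throughout. Mmp9 itself overlapped, at 0.111 to 0.999 FPKM in cre_negative and 0.0671 to 0.266 in cre_positive libraries, whereas Timp1 did not. Mmp14 to Timp2, Mmp2 to Timp1 and Adamts5 to Timp3 overlapped between groups.

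**Figure D4:**
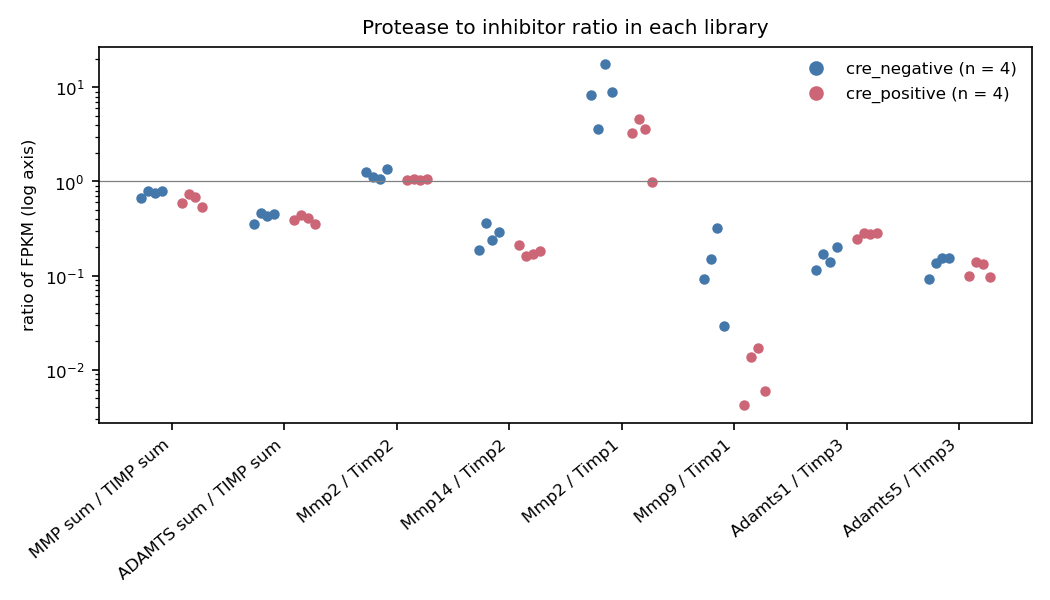
Ratio of FPKM on a log axis (y) for 8 protease and inhibitor pairs or sums (x) in each cre_negative (blue) and cre_positive (red) library; the grey line marks a ratio of 1. Mmp2 / Timp2, Mmp9 / Timp1 and Adamts1 / Timp3 separate the groups and the other 5 ratios overlap.

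The ADAMTS enzymes are ordered here by what they are known to cut. Among the procollagen N-proteinases, which trim newly made fibrillar collagen, Adamts2 measured 4.85, 5.24, 5.59 and 5.99 FPKM in cre_negative and 14.1, 11.6, 13.2 and 11.3 in cre_positive libraries. Both groups were tight and far apart. The mean went from 5.42 ± 0.488 to 12.6 ± 1.33 FPKM (SD, n = 4 each), a log2 difference of 1.08 (SE 0.10, limma adjusted p = 1.40e-05). Its relative Adamts3 measured 1.34 ± 0.110 and 1.59 ± 0.0917 FPKM, and its groups did not overlap although it was not called (limma adjusted p = 0.252). With equalised library sums Adamts3, Adamts6 and Adamts12 were called higher (limma adjusted p = 0.0158, 0.0327 and 0.0218). The third of these enzymes, Adamts14, stood under the filter at 0.165 to 0.267 FPKM in cre_negative and 0.483 to 0.717 in cre_positive libraries.

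The proteoglycan-cutting enzymes, which act on versican and aggrecan, moved in different directions. Adamts1, the most abundant ADAMTS gene, measured 8.39, 8.84, 9.10 and 12.4 FPKM in cre_negative and 19.0, 15.3, 15.9 and 18.0 in cre_positive libraries. All cre_positive libraries were above the controls, and the log2 difference was 0.77 (SE 0.12, limma adjusted p = 6.17e-04). Adamts5, the second in abundance among the controls, measured 8.34 ± 1.64 and 7.22 ± 0.728 FPKM (SD, n = 4 each) and was not called (limma adjusted p = 0.327). Adamts9 fell from 6.73 ± 0.782 to 4.52 ± 0.403 FPKM (log2 difference -0.48, limma adjusted p = 0.00322), but not when library sums were equalised (-0.22, adjusted p = 0.0944) or in the 5 libraries of high Rn45s alone (-0.42, adjusted p = 0.0667). Adamts15 fell from 2.09 ± 0.357 to 0.959 ± 0.259 FPKM (-0.66, limma adjusted p = 0.00255), and was the only tested gene of the family with a group mean under 1 FPKM.

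Adamts7, known for cutting the cartilage matrix protein COMP and for a locus linked to coronary disease, measured 4.12, 4.06, 4.70 and 3.49 FPKM in cre_negative and 1.25, 1.53, 1.52 and 1.61 in cre_positive libraries. No cre_positive library reached the lowest control. The mean was 2.77-fold lower (4.09 ± 0.497 against 1.48 ± 0.156 FPKM, SD, n = 4 each), with a log2 difference of -1.04 (SE 0.10, limma adjusted p = 2.93e-05). It shares 122 exonic bases with the antisense gene Tbc1d2b, which stayed at 3.75 to 4.17 FPKM in all 8 libraries. Adamts12, its closest relative, measured 1.28 ± 0.311 and 1.77 ± 0.374 FPKM and was not called (limma adjusted p = 0.137). Of the pair that associates with fibrillin microfibrils, Adamts10 rose from 3.25 ± 0.559 to 5.66 ± 0.595 FPKM (log2 difference 0.65, limma adjusted p = 0.00126), whereas Adamts6 measured 1.44 ± 0.104 and 1.61 ± 0.128 FPKM (limma adjusted p = 0.459). Each of these means is over n = 4 libraries with SD.

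The ADAMTS-like genes held the largest difference of the family. Adamtsl2, whose product binds fibrillin and the latent TGF-beta binding protein LTBP1 and whose mutation causes geleophysic dysplasia, measured 5.44, 6.63, 4.90 and 6.98 FPKM in cre_negative and 46.8, 47.6, 54.6 and 36.5 in cre_positive libraries. The lowest cre_positive library was far above the highest control. The mean was 7.74-fold higher (5.99 ± 0.982 against 46.4 ± 7.43 FPKM, SD, n = 4 each), with a log2 difference of 2.76 (SE 0.14, limma adjusted p = 8.21e-07). This placed Adamtsl2 at rank 17 among the 2307 genes that rose. Its locus is chr2:27079336-27108981.

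Adamtsl5, which also binds fibrillin, was the most abundant ADAMTSL gene of the controls and measured 18.4, 22.6, 16.2 and 18.8 FPKM against 36.8, 34.8, 41.3 and 41.0. The groups did not overlap, and the log2 difference was 0.99 (SE 0.10, limma adjusted p = 4.43e-05). In the deposited table its locus is merged with those of 48 other genes, so its reads may be less certain. The same holds on a smaller scale for Timp1, merged with 3 other genes, Timp3 with 2, and Timp2 and Timp4 with 1 each. Adamtsl4, a microfibril protein whose loss displaces the lens, fell from 7.39 ± 2.07 to 3.66 ± 0.722 FPKM (log2 difference -0.83, limma adjusted p = 0.00281). Adamtsl3 measured 2.42 ± 0.390 and 1.80 ± 0.252 FPKM, and its groups did not overlap although it was not called (limma adjusted p = 0.0786). The summed level of the ADAMTSL genes was 35.1 ± 1.49 FPKM in the controls and 90.8 ± 7.78 with Cre (SD, n = 4 each), and the share of Adamtsl2 in it went from 17.0% ± 2.61 to 50.8% ± 4.91.

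The other 26 genes had a mean under 1 FPKM and did not exceed 1.87 FPKM in any library. Mmp1a, Mmp1b, Mmp7 and Mmp20 were listed at the lowest value of the table, 0.01, in all 8 libraries. In a fit of all 24341 genes without the filter, 5 of the 26 rose, where 8.45% of all genes did, and 1 fell, where 7.65% did. Those shares include the genes above the filter, and the share among genes under it alone was not counted. The genes that rose were Adamts8 (0.237 to 0.481 against 1.04 to 1.87 FPKM), Adamts14, Adamts20 (0.0697 to 0.184 against 0.243 to 0.495), Mmp28 (0.232 to 0.530 against 0.573 to 0.795) and Adamtsl1 (0.263 to 0.409 against 0.454 to 0.610). Of these, Adamts8 and Adamts20 cut proteoglycans and Mmp28 is the MMP known as epilysin. The gene that fell was Mmp13, collagenase-3, at 0.305 to 0.530 FPKM in cre_negative and 0.121 to 0.241 in cre_positive libraries. The limma adjusted p of these 6 ran from 0.00545 (Adamts8) to 0.0413 (Adamts20). Adamts8 shares 489 exonic bases with the antisense gene Gm29724 and Mmp28 shares 466 with 1700020L24Rik, so reads of these genes may be mixed.

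The remaining genes of low level were not called. Those with values above 0.01 in all libraries were Mmp9 (gelatinase B), Mmp16, Mmp17, Adamts4, Adamts13 (which cuts von Willebrand factor), Adamts17 and Adamts19. Mmp8, Mmp10, Mmp12, Mmp21, Mmp24, Mmp25, Mmp27, Adamts16 and Adamts18 were at 0.01 in at least 1 library. Mmp9 and Mmp8, which neutrophils carry in their granules, were highest in cre_negative 2, at 0.999 and 0.360 FPKM. The neutrophil markers S100a8 and S100a9 were also highest there, at 32.0 and 37.8 FPKM, against at most 2.55 and 3.86 in the other 7 libraries. The summed level of the neutrophil markers was 75.1 FPKM in that library and at most 7.47 in the other controls, while Ngp, Camp and Ltf were at most 0.156 FPKM in every library. The mean of Mmp9 in the controls was 0.477 FPKM with cre_negative 2 and 0.303 without it, against 0.178 in cre_positive libraries.

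**Figure D5:**
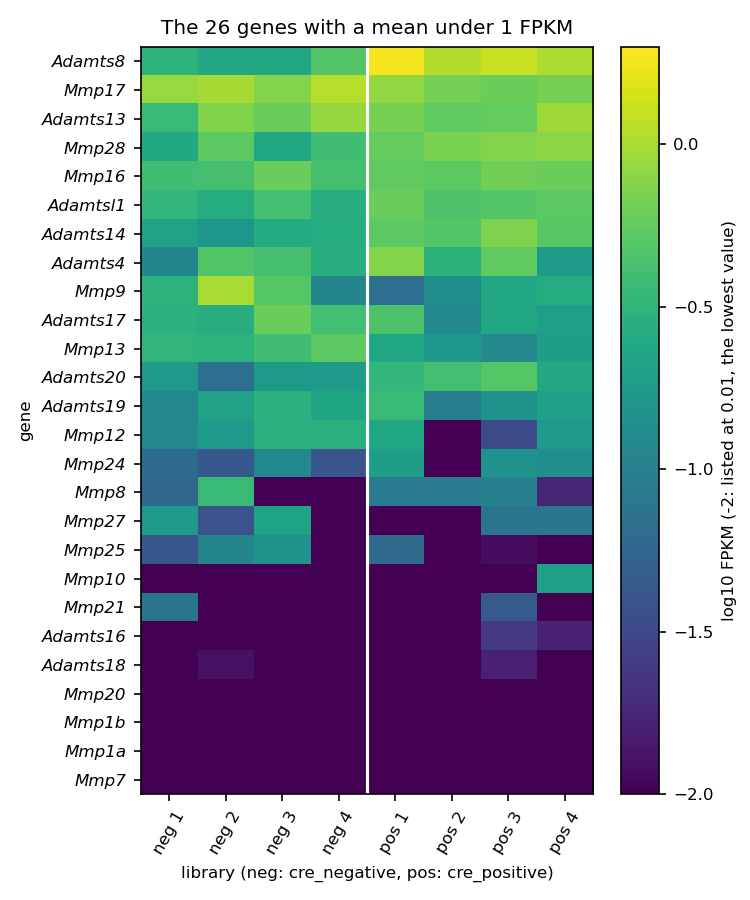
Log10 FPKM (colour) of the 26 genes with a mean under 1 FPKM (rows, highest mean at the top) in each library (columns); the darkest colour is 0.01 FPKM, the lowest value of the table. Adamts8 is brighter in all 4 cre_positive libraries, Mmp9 is brightest in cre_negative 2, and the 4 genes at the bottom are at 0.01 throughout.

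Some neighbouring genes of the family had different ratios of cre_positive to cre_negative means. Of the genes on mouse chromosome 9, 10 MMPs lie in 1 cluster (chr9:7272514-7699585, RefSeq GRCm38.p6), and 1 of the 10, Mmp3, was high enough to be tested. The others did not exceed 0.530 FPKM in any library. Adamts15 and Adamts8 lie 20.1 kb apart on chromosome 9 with no protein-coding gene between them. Adamts15 fell to 0.458 of its control level while the mean of Adamts8 was 4.18-fold higher. Adamts1 and Adamts5 lie 55.0 kb apart on chromosome 16, also next to each other, and had ratios of 1.77 and 0.866. Adamtsl2 and Adamts13 lie 69.7 kb apart on chromosome 2 with 3 genes between them, and had ratios of 7.74 and 1.07. These pairs were chosen after their values were seen, and the difference within a pair was not tested.

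Genes that act with the family were counted from 6 lists. Of the cleaved matrix substrates, 11 of 15 tested genes rose and the other 4 were not called, with a median log2 difference of 1.09; examples were elastin (Eln, 2.46), Comp (2.39), biglycan (Bgn, 1.53) and collagen I (Col1a1, 1.45). Of the list of other protease inhibitors, 9 of 12 rose and the other 3 were not called, with a median of 0.56. Those that rose included Serpinb6a (0.66) and Serpinf1 (1.46), which is listed as a serpin by family and does not itself inhibit proteases. This list also holds Pcolce (1.05), which enhances procollagen cleavage and is no inhibitor of it. Without Pcolce, but with Serpinf1 still counted, 8 of 11 rose, with a median of 0.49. Of the other matrix and sheddase proteases, 6 of 16 rose and 1 fell, with Adam9 at 0.92, Ctsk at 0.80, Adam19 at -0.79 and Prss23 at 0.63. The median of that list was -0.09 even so. All of these values are log2 differences from the limma model, and the shares stand beside the 19.7% and 19.4% of all genes.

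Of the protease activators, 1 of 8 tested genes rose (Pcsk5, 0.50) and 1 fell (Bsg, an inducer of MMPs at the cell surface, -0.87), with a median of -0.02. Pcsk5 measured 0.698 to 0.938 FPKM in cre_negative and 1.18 to 2.06 in cre_positive libraries. It thus passed the filter of 1 FPKM only through the group in which it was higher. Of the receptors that clear proteases and their inhibitors from the matrix, 3 of 4 rose, among them Mrc2 (1.01) and Lrp1 (0.76), and Vldlr fell (-1.59). Of the upstream inducers, 2 of 12 rose, Tgfb3 (1.22) and Agt (0.77), and 2 fell, the ETS factors Ets1 (-0.49) and Ets2 (-0.42). The call of Agt was lost in 11 of the 16 alternatives that had a test, and those of Ets1 and Ets2 when library sums were equalised. Another ETS factor of the list, Etv4, stood under the filter. It measured 0.01 to 0.305 FPKM in cre_negative and 0.823 to 1.20 in cre_positive libraries. In the fit without the filter Etv4, Il6 and Runx2 were called higher (limma adjusted p = 0.00299, 0.0321 and 6.59e-04). No inducer under the filter was called lower there. Equalised sums gave 4 activators higher and 1 lower, and 6 inducers higher and none lower. The counts of the main fit, here and for the markers below, stand beside 19.7% of all genes called higher and 19.4% lower. Activators and inducers lay below these shares in both directions. The counts with equalised sums, here and for the markers below, stand beside 5355 of 11688 genes called higher and 1028 lower in that setting.

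Markers of cell types also differed between the groups, in directions that varied by type, and their part in the differences was not tested. Some genes are counted in both kinds of list. Col1a1, Col1a2 and Dcn are matrix substrates and fibroblast markers, and Vwf is a substrate and an endothelial marker. In bulk tissue fewer cells of a type and less RNA per cell cannot be told apart. Of the cardiomyocyte markers 7 of 8 fell (Ryr2, Pln, Myl3 and Myh6 the most), and their summed level was 57544 to 60983 FPKM in cre_negative and 26673 to 27280 in cre_positive libraries. Of the fibroblast markers 6 of 10 rose and 1 fell (Postn, Mfap5, Col1a1 and Col1a2 rose the most), with sums of 1075 to 1201 and 1447 to 1796 FPKM. Of the smooth muscle and pericyte markers 4 of 10 rose and 2 fell, with Cnn1, Acta2 and Cspg4 higher and Abcc9 lower, and sums of 593 to 726 and 999 to 1448 FPKM. The higher sum rested on Acta2: the other 9 genes summed to 443 to 501 FPKM in cre_negative and 402 to 464 in cre_positive libraries. Of the endothelial markers 1 of 8 rose (Vwf) and 3 fell (Kdr, Cdh5 and Tek), with sums of 392 to 449 and 325 to 383 FPKM. The call of Cdh5 was lost in 10 of the 16 alternatives that had a test and that of Vwf in 5, and the groups of both overlapped. With equalised library sums 2 endothelial markers were called higher and 1 lower, and the median of the list moved from -0.28 to 0.01.

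Of the 9 tested macrophage markers 6 fell and 3 were not called (C1qa, Cd163, Mrc1 and Lyz2 the most), with sums of 276 to 345 and 170 to 244 FPKM. With equalised library sums 3 were called lower, and the median of the list moved from -0.64 to -0.33. Neither of the 2 tested neutrophil markers was called. The only tested mast cell marker, Kit, fell, a call lost in 4 of the 16 alternatives that had a test. None of the T and B cell markers reached the filter, and all 7 in the table stayed below 1 FPKM. Of the 2 tested epicardial markers Krt18 rose and Wt1 fell, the latter a call lost in 11 of these 16 alternatives. The only tested nerve marker, Gfra3, was not called. The only tested adipocyte marker, Fabp4, which endothelial cells also express, fell, while Adipoq was at most 0.365 FPKM.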

How the data were processed

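The deposited values are FPKM, 1 per gene symbol in each library. The authors used Cufflinks, Bowtie2 2.2.6 and mm10, per the submitters' processing notes, and for settings, annotation and strand no source used here says more. The libraries are stranded total RNA after removal of ribosomal RNA, per the labels' protocols. The lowest value, 0.01, stood in 32.6% to 39.0% of genes; 6 cells that are no number were left missing. Groups come from the titles.

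The 11688 genes that averaged 1 FPKM or more were compared with limma 3.58.1 in R 4.3.3 (lmFit, eBayes with trend) on log2(FPKM + 1), which understates changes of low genes, and called at a Benjamini-Hochberg adjusted p under 0.05. TIMP genes also had exact permutation tests. Ratios had no test. Depth was estimated from the single-fragment step of FPKM in 3664 genes with 1 transcript.

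The genes, lists and tests were chosen with earlier results of these data known. Every tested gene of the family is named, with the value of each library for TIMP genes, for called genes with a log2 difference of at least 1 and for the most abundant of each subfamily. Of each list up to 4 called genes of largest change are named, or the 2 most abundant; some genes that the rule names are not reported here. Alternatives were a pseudocount of 0.1, no filter, equal library sums over genes other than ribosomal and small RNA genes and ribosomal protein genes, quantile normalization, the Rn45s batches (a threshold of 100 FPKM), a replicate block and leaving out each library. Promoter windows are RefSeq, GRCm38.p6. A search of protein sequences was planned and not run.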

Additional observations from a re-analysis of the deposited data

Results flagged for a closer look

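In 3 of the 50 groups of 4 values that were examined (25 tested genes in each group of libraries), 1 library stood apart from the other 3 by more than Dixon's critical share of the group's range (95% level); chance gives about 1 such group in 20. Timp1 was 45.2 FPKM in cre_positive 4 and 10.2 to 16.1 in the other cre_positive libraries. Mmp3 was 3.30 FPKM in cre_positive 1 and 1.76 to 2.01 in the others. Adamts15 was 2.62 FPKM in cre_negative 2 and 1.85 to 1.97 in the others.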

How the results depend on the processing

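The 14 calls and their directions were kept with a pseudocount of 0.1, without a filter, with quantile normalization, with the Rn45s batch as a term, with cre_negative 1 and 2 averaged (an alternative chosen after seeing the data, because their library names share a code) and without each library in turn; 9 members were called higher and 5 lower in every fit that left out a library, while genes called ran from 1862 to 2335 higher and from 1862 to 2317 lower. With equalised sums and with the 5 high-Rn45s libraries the call of Adamts9 was lost. Equalised sums moved the median of all genes to 0.26. They gave 5355 of 11688 genes called higher and 1028 lower, against 2307 and 2269 in the main fit. Of the 25 members 13 were then called higher and 4 lower, with a median of 0.33. The upward shift was thus shared by all genes, and the lead of the family over them was smaller. The lead of higher calls depends on the scaling. Without a filter 14 members were called higher. The log2 differences of uncalled members changed sign in places. With equalised sums they were 0.10 for Adamts5, 0.14 for Mmp19, 0.30 for Timp3 and 0.16 for Timp4, with 0.0365 for Gfra3 and 0.0198 for Tek. In the high-Rn45s libraries Mmp19 was at 0.10, and in the low-Rn45s libraries Mmp3 was at -0.27 and Timp3 at 0.20. Timp3 was at 0.0611 with quantile normalization and 0.0448 with the batch term. Leaving out each library gave -0.0269 to 0.17 for Mmp11, -0.13 to 0.0480 for Mmp19 and -0.11 to 0.0726 for Timp3. The log2 difference of the ADAMTS to TIMP ratio was -0.27 in the low-Rn45s libraries. The cause of these shifts was not tested.

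The labels do not say whether the sample numbers pair the libraries. Deviations of same-numbered libraries correlated at -0.09, -0.16, -0.13 and -0.08. These values cannot settle the question, since the numbers 2, 3 and 4 each join libraries of different Rn45s batches. With the number as a replicate block 9 members were called higher and 5 lower, and 1963 genes higher and 1899 lower. Genes near 1 FPKM rest on few fragments in the shallow libraries.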
